A study of Danio rerio with 8 samples.

Results

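The genes described here encode the machinery that drives cells into mitosis and separates their chromosomes: the cyclins and kinases of mitotic entry, the kinetochore, the spindle checkpoint, spindle motors and condensin. They were chosen by symbol from a table of read counts. The rule used no values, but it was set with earlier results of these data known. The rule took 56 of the 14781 rows of that table, and all 56 symbols are current gene symbols in the RefSeq table of assembly GRCz12tu. Of these, 54 had enough reads to be tested. Aurkaip1 and pttg1ipb were picked up by the start of their symbols and were not counted here as mitotic genes, which leaves 52 tested members with a mitotic role. The remaining 2 members had almost no reads: kifc1 had none in any library, which allows up to 0.0950 CPM (reads scaled to a fixed library size) in the shallowest library, and birc5b had 1 read in MYCN 3 and 1 read in myrAKT 3.

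RNA was sequenced from sorted tumour cells of untreated transgenic zebrafish, in 4 samples per group. Fish carrying MYCN gave neuroblastoma cells sorted for EGFP. Fish carrying myrAKT, a form of the kinase AKT held at the membrane, gave ganglioneuroma cells sorted for mCherry. Both are tumours of the sympathetic nervous system, and ganglioneuroma is the more differentiated of them. Transgene, tumour type and sorting marker went together in every sample and cannot be told apart. The sources used here do not give the promoters of the transgenes, the age of the fish or the number of fish behind a sample. The p-values therefore measure only how these samples vary, which may be technical.

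In a dividing cell, CDK1 bound to cyclin B starts mitosis. Condensin and topoisomerase II fold the chromosomes, and kinetochores built on CENP-A chromatin attach them to a spindle shaped by kinesins and by Aurora and Polo kinases. The checkpoint holds back CDC20, the activator of the anaphase-promoting complex, until all chromosomes are attached. Most of these genes are transcribed in late cell cycle under FOXM1 and the MuvB complexes, and their RNA is widely used as a marker of cycling cells. Neuroblastoma is known as a tumour of dividing neuroblasts and ganglioneuroma as one of mostly mature ganglion cells and Schwann cells.

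The MYCN libraries held 36984845 to 55827123 counts, and the myrAKT libraries 25948623 to 43083220. The counts were turned into CPM scaled with edgeR's TMM factors, and differences were tested with edgeR's quasi-likelihood test over all 12126 genes with enough reads, at a Benjamini-Hochberg adjusted p under 0.05. The library MYCN 4 stood apart from the other MYCN libraries for several members, and calls that change without it are given both ways. Markers of other cells moved with the groups. The summed level of 12 catecholamine cell markers, of which 11 fell and ddc did not pass, was 9085 to 10809.9 CPM in MYCN and 1978 to 4321 CPM in myrAKT. Dbh and th, enzymes that define sympathetic cells, were its most abundant genes, dbh at 3349 ± 304 CPM in MYCN and 1248 ± 377 CPM in myrAKT and th at 2771 ± 545 CPM in MYCN and 1101 ± 374 CPM in myrAKT (SD, n = 4). The summed level of the leukocyte markers, of which 21 of 21 tested rose, was 539 to 1639.8 CPM in MYCN and 23199 to 27780.4 CPM in myrAKT. Its most abundant genes were cd74a, at 360.3 ± 207 CPM in MYCN and 6511 ± 1234 CPM in myrAKT, and lyz, at 44 ± 24 CPM in MYCN and 4282 ± 342 CPM in myrAKT. Of 10 erythroid markers 9 rose, with a summed level of 214 to 328 CPM in MYCN and 3884 to 9182 CPM in myrAKT, led by the globin gene hbaa1, at 71.3 ± 33.2 CPM in MYCN and 3449 ± 1435 CPM in myrAKT, and the anion exchanger slc4a1a, at 10.2 ± 5.67 CPM in MYCN and 1058 ± 653 CPM in myrAKT. Their part in the results below was not tested, and in bulk samples fewer cells of a type and less RNA per cell cannot be told apart.

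Mitotic genes were higher in the myrAKT libraries in nearly every case. Of the 52 tested members with a mitotic role 50 rose, none fell and 2, bub3 and ska2, did not pass, where 37.6% of all tested genes rose and 38.4% fell. With aurkaip1 and pttg1ipb added, 51 of the 54 tested members rose and 1, aurkaip1, fell. In either direction 52 of the 54 passed, against 76.0% of all tested genes. The median log2 fold change of the 52, myrAKT minus MYCN, was 2.30, against -0.044 for all genes tested. In 49 of the 52 every myrAKT library lay above every MYCN library, as it did for 36.2% of all tested genes. Groups did not overlap in either direction for 51 of the 54, against 72.5% of all tested genes. Scaled by library totals, 52 of the 52 rose, where 45.4% of all genes did. Scaled on dbh and th, 52 rose, where 68.6% of all genes did. A rise of 4-fold or more was called for 30 of them and for 20.4% of all tested genes. Together the 52 genes took 0.0389 ± 0.00377% of the reads in the MYCN libraries, and 0.242 ± 0.0636% of those in the myrAKT libraries (SD, n = 4). The members passed the minimum count without help from the higher group: 53 of the 54 tested members reached it in all 4 MYCN libraries, and pttg1ipb did not.

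**Figure D1:**
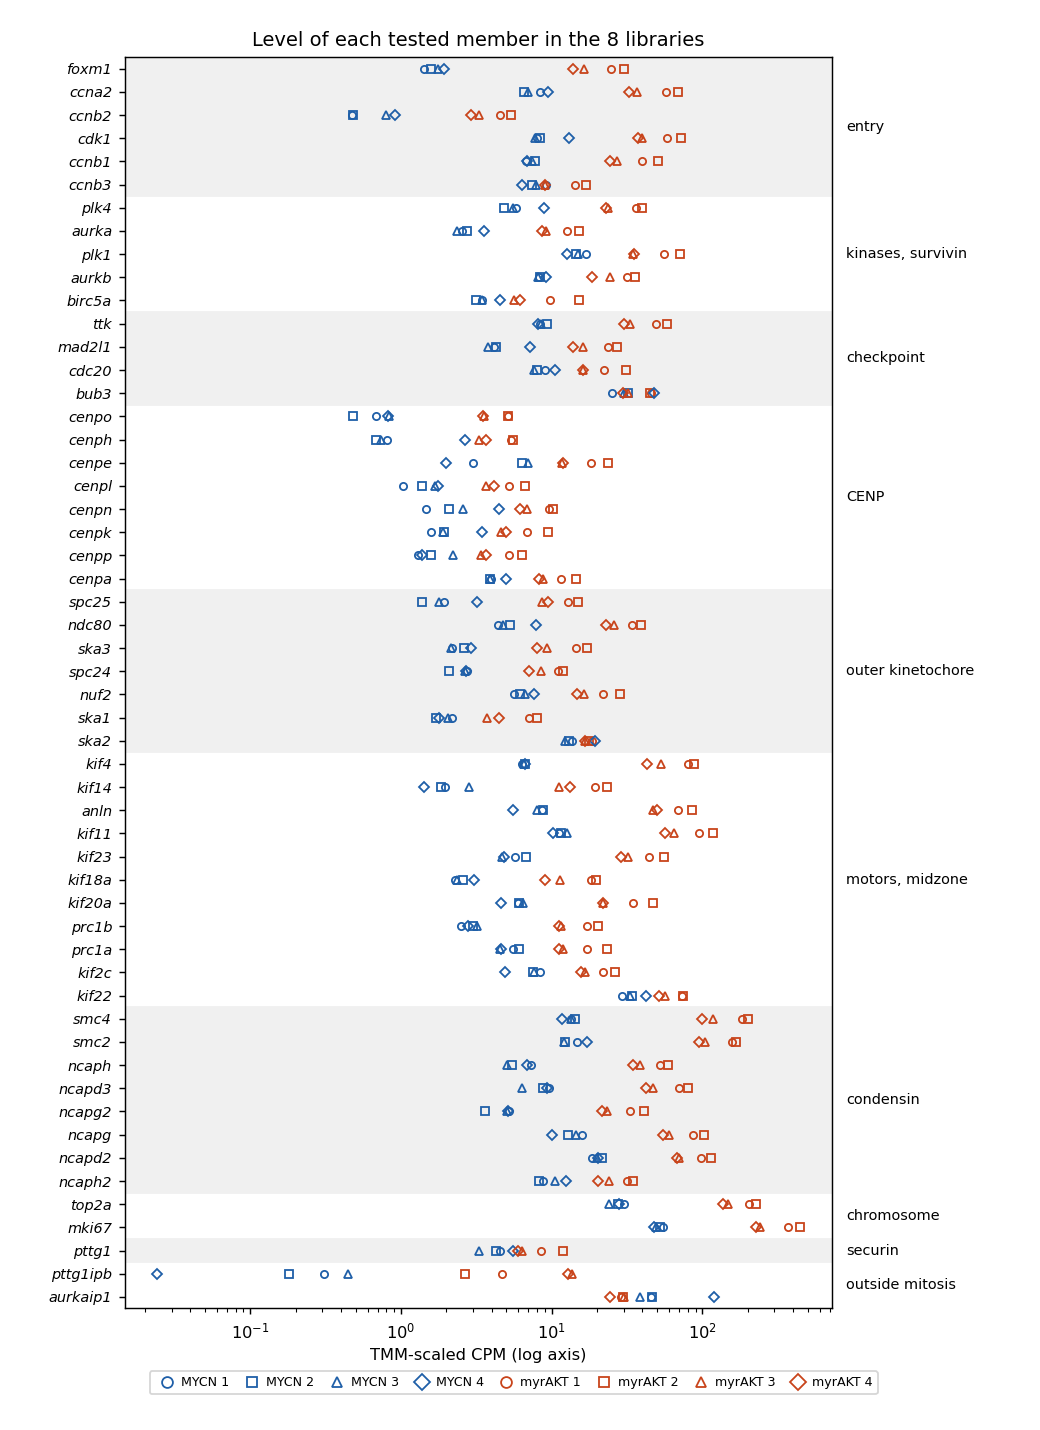
TMM-scaled CPM (log axis) of the 54 tested members, grouped by role, with 1 point per library, MYCN in blue and myrAKT in red. The groups separate for 49 of the 52 mitotic members, and the exceptions are ccnb3, bub3 and ska2.

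Of the genes of mitotic entry, 6 of 6 rose, with a median log2 fold change of 2.54. Foxm1, the forkhead factor that switches on the mitotic genes, was at 1.41, 1.58, 1.75 and 1.92 CPM in MYCN 1 to 4 and 24.9, 30.2, 16.3 and 13.8 CPM in myrAKT 1 to 4. Its lowest myrAKT library was several times above its highest MYCN library (log2 fold change 3.68 ± 0.29, SE, edgeR adjusted p = 2.5e-06), the largest log2 fold change among the 52. Cdk1, the kinase that starts mitosis, was at 8.01, 8.39, 7.69 and 12.9 CPM in MYCN 1 to 4 and 57.8, 71.7, 39.7 and 37.3 CPM in myrAKT 1 to 4. MYCN 4 was the highest MYCN library, and the groups stayed apart (log2 fold change 2.48 ± 0.26, SE, edgeR adjusted p = 1.7e-05). Ccnb1, the main B-type cyclin, was at 6.71, 7.74, 7.34 and 6.84 CPM in MYCN 1 to 4 and 40.0, 50.9, 27.1 and 24.2 CPM in myrAKT 1 to 4. The MYCN libraries lay close together and well below the myrAKT libraries (log2 fold change 2.31 ± 0.24, SE, edgeR adjusted p = 1.6e-05). Ccna2, the cyclin of S phase and G2, rose by 2.65 ± 0.26 and ccnb2, a further B-type cyclin counted at only 16 to 38 reads per MYCN library, by 2.59 ± 0.32 on the log2 scale (SE, edgeR adjusted p = 1.1e-05 and 4.6e-05).

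Ccnb3 did not follow the other cyclins. This B-type cyclin, known in the mouse for its part in oocyte meiosis, was at 9.12, 7.41, 7.86 and 6.31 CPM in MYCN 1 to 4 and 14.3, 16.8, 9.07 and 8.99 CPM in myrAKT 1 to 4. MYCN 1, at 9.12 CPM, lay between myrAKT 3 and 4 and the higher pair of myrAKT libraries, so the groups overlapped. It rose by 0.68 ± 0.24 on the log2 scale (SE, edgeR adjusted p = 0.025). That call was lost on leaving out MYCN 2 (adjusted p = 0.061), MYCN 4 (0.057), myrAKT 1 (0.067) or myrAKT 2 (0.081).

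The mitotic kinases and the survivin gene birc5a rose in 5 of 5 cases, with a median log2 fold change of 1.73. Plk1, the Polo kinase of spindle assembly, was at 17, 14.5, 15 and 12.7 CPM in MYCN 1 to 4 and 55.6, 70.7, 34.7 and 35.1 CPM in myrAKT 1 to 4. All myrAKT libraries were higher, with 1 and 2 above 3 and 4 (log2 fold change 1.73 ± 0.24, SE, edgeR adjusted p = 1.2e-04). Plk4, the kinase that starts centriole duplication, rose by 2.29 ± 0.26 on the log2 scale. Aurkb, the kinase of the chromosomal passenger complex, was at 8.20, 8.33, 8.06 and 9.21 CPM in MYCN 1 to 4 and 31.8, 35.5, 24.3 and 18.4 CPM in myrAKT 1 to 4. The MYCN values differed little from each other and none reached the myrAKT range (log2 fold change 1.70 ± 0.21, SE, edgeR adjusted p = 4.4e-05). Aurka, the Aurora kinase of centrosomes and spindle poles, rose by 2.03 ± 0.24. Birc5a, survivin of the passenger complex, was at 3.46, 3.17, 3.42 and 4.53 CPM in MYCN 1 to 4 and 9.69, 15.2, 5.64 and 6.14 CPM in myrAKT 1 to 4. MYCN 4 came close to myrAKT 3 without reaching it, and myrAKT 2 stood well above the other libraries (log2 fold change 1.33 ± 0.33, SE, edgeR adjusted p = 0.0041). Adjusted p by edgeR was 2.7e-05 for plk4 and 3.7e-05 for aurka.

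Of the spindle checkpoint genes, ttk, mad2l1 and cdc20 rose and bub3 did not pass. Ttk, the kinase MPS1 that starts checkpoint signalling, was at 8.34, 9.29, 8.52 and 8.06 CPM in MYCN 1 to 4 and 49.1, 58.2, 33 and 30.2 CPM in myrAKT 1 to 4, with the groups far apart (log2 fold change 2.32 ± 0.22, SE, edgeR adjusted p = 8.7e-06). Mad2l1, the checkpoint protein MAD2, was at 4.15, 4.27, 3.79 and 7.13 CPM in MYCN 1 to 4 and 23.7, 27, 16.1 and 13.9 CPM in myrAKT 1 to 4. MYCN 4 was higher than the other MYCN libraries and below all myrAKT libraries (log2 fold change 2.06 ± 0.28, SE, edgeR adjusted p = 9.6e-05). Cdc20, the target of the checkpoint, was at 8.95, 7.94, 7.61 and 10.6 CPM in MYCN 1 to 4 and 22.2, 31.1, 16 and 16.2 CPM in myrAKT 1 to 4, a smaller rise (log2 fold change 1.29 ± 0.24, SE, edgeR adjusted p = 7.1e-04). Bub3, an adaptor protein that brings BUB kinases to kinetochores, was at 25.1, 32.2, 30.3 and 47.7 CPM in MYCN 1 to 4 and 45.3, 44.5, 32.1 and 29.5 CPM in myrAKT 1 to 4. MYCN 4 was the highest of all 8 libraries, and the groups overlapped (log2 fold change 0.16 ± 0.22, SE, edgeR adjusted p = 0.52). When libraries were scaled by their totals bub3 passed, at 0.56 (adjusted p = 0.026), where the median of all genes was 0.34.

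At the inner kinetochore and among the other CENP genes, 8 of 8 rose, with a median log2 fold change of 1.69. Cenpa, the histone H3 variant that marks centromeres, was at 3.98, 3.91, 3.89 and 4.99 CPM in MYCN 1 to 4 and 11.5, 14.4, 8.69 and 8.17 CPM in myrAKT 1 to 4, with MYCN 4 the highest MYCN library and all of them below the myrAKT range (log2 fold change 1.35 ± 0.22, SE, edgeR adjusted p = 3.2e-04). Cenpe, the kinesin that carries chromosomes to the spindle equator, was at 2.99, 6.36, 6.97 and 1.99 CPM in MYCN 1 to 4 and 18.1, 23.7, 11.7 and 11.9 CPM in myrAKT 1 to 4. MYCN 1 and 4 were well below MYCN 2 and 3, and the gene rose by 1.85 ± 0.40 on the log2 scale (SE, edgeR adjusted p = 0.0021). Cenph, of the constitutive centromere network, was at 0.801, 0.687, 0.739 and 2.64 CPM in MYCN 1 to 4 and 5.33, 5.52, 3.28 and 3.67 CPM in myrAKT 1 to 4. MYCN 4 was more than 3 times the mean of the other MYCN libraries, and the log2 fold change of 1.86 ± 0.43 became 2.57 without it (edgeR adjusted p = 0.003 and 7.0e-05). The other network genes were cenpo, cenpl, cenpn, cenpk and cenpp. Cenpo had the largest log2 fold change of the 8, 2.60 ± 0.27 (edgeR adjusted p = 1.4e-05), and the rest lay between 1.53 for cenpp and 1.76 for cenpl.

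The outer kinetochore, which grips the microtubules, rose in 6 of 7 genes, with a median log2 fold change of 1.92. Ndc80, which gives the NDC80 complex its name, was at 4.38, 5.29, 4.73 and 7.87 CPM in MYCN 1 to 4 and 33.9, 38.9, 25.8 and 22.9 CPM in myrAKT 1 to 4. MYCN 4 was the highest MYCN library and lay below all myrAKT libraries (log2 fold change 2.45 ± 0.24, SE, edgeR adjusted p = 1.1e-05). Its partners in the complex rose by 2.46 ± 0.29 for spc25, 1.92 ± 0.22 for spc24 and 1.65 ± 0.23 for nuf2 on the log2 scale (edgeR adjusted p = 3.7e-05, 2.7e-05 and 1.0e-04). In the SKA complex, which helps kinetochores follow shrinking microtubules, ska3 rose by 2.31 and ska1 by 1.59, while ska2 was at 13.5, 13, 12.3 and 19.2 CPM in MYCN 1 to 4 and 18.5, 17.7, 16.6 and 16.7 CPM in myrAKT 1 to 4. MYCN 4 was the highest library of both groups, and the log2 fold change of 0.26 ± 0.17 did not pass (edgeR adjusted p = 0.17). It passed without MYCN 4, at 0.42 (adjusted p = 0.0037), and with library totals, at 0.66 (adjusted p = 0.0019).

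Spindle motors and proteins of the midzone rose in 11 of 11 cases, with a median log2 fold change of 2.51. Kif4, a chromosome-bound kinesin that also shapes the midzone, was at 6.34, 6.63, 6.58 and 6.65 CPM in MYCN 1 to 4 and 79.8, 87.8, 53.3 and 43.1 CPM in myrAKT 1 to 4. The MYCN libraries hardly differed from each other, and every myrAKT library was far above them (log2 fold change 3.33 ± 0.24, SE, edgeR adjusted p = 1.3e-06). Kif11, the motor that pushes spindle poles apart, was at 11.2, 11.6, 12.5 and 10.2 CPM in MYCN 1 to 4 and 94.6, 118, 64.3 and 56.6 CPM in myrAKT 1 to 4, with no overlap (log2 fold change 2.87 ± 0.24, SE, edgeR adjusted p = 3.6e-06). Kif14, kif23 and kif20a, kinesins of cytokinesis, rose by 3.06 ± 0.30, 2.87 ± 0.24 and 2.44 ± 0.27 on the log2 scale, and anln, the anillin of the contractile ring, by 3.02 ± 0.24 (edgeR adjusted p = 1.1e-05, 3.6e-06, 2.5e-05 and 2.7e-06). Kif18a, which limits microtubule growth at kinetochores, rose by 2.51 and kif2c, a kinesin that dismantles microtubules, by 1.51 (edgeR adjusted p = 2.6e-05 and 1.8e-04). The smallest change was that of kif22, a chromosome-bound kinesin, at 29.2, 34.2, 32.9 and 42.3 CPM in MYCN 1 to 4 and 72.6, 74.7, 56.1 and 51.2 CPM in myrAKT 1 to 4. Its groups stayed apart by a narrow gap between MYCN 4 and myrAKT 4 (log2 fold change 0.88 ± 0.17, SE, edgeR adjusted p = 9.4e-04). Prc1b and prc1a, paralogues of the protein that bundles midzone microtubules, rose by 2.39 and 1.61 (edgeR adjusted p = 1.2e-05 and 2.8e-04). The sources used here do not say how reads shared by such copies were counted, so the split between them is uncertain.

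Condensin, the ring complex that compacts mitotic chromosomes, rose in 8 of 8 genes and had the highest median log2 fold change of the groups with more than 2 genes, 2.73. Smc4 and smc2, the ATPase core shared by both forms of the complex, led it. Smc4 was at 13.5, 14.2, 13.3 and 11.8 CPM in MYCN 1 to 4 and 183, 200.1, 118 and 99.4 CPM in myrAKT 1 to 4. The myrAKT libraries were all many times the MYCN level (log2 fold change 3.51 ± 0.24, SE, edgeR adjusted p = 1.0e-06). Smc2 was at 14.7, 12.2, 12 and 17.2 CPM in MYCN 1 to 4 and 158, 168, 105 and 95 CPM in myrAKT 1 to 4, with the same separation (log2 fold change 3.23 ± 0.23, SE, edgeR adjusted p = 1.3e-06). Of condensin I, ncaph rose by 2.91 ± 0.22, ncapg by 2.52 ± 0.24 and ncapd2 by 2.12 ± 0.19 (edgeR adjusted p = 1.7e-06, 8.3e-06 and 4.8e-06). Of condensin II, ncapd3 rose by 2.82 ± 0.24, ncapg2 by 2.65 ± 0.24 and ncaph2 by 1.47 ± 0.21 (edgeR adjusted p = 4.3e-06, 6.2e-06 and 1.4e-04). The medians of the 3 subunits particular to each form were 2.52 for condensin I and 2.65 for condensin II. Ncaph2 was the lowest of the 8, at 8.74, 8.24, 10.5 and 12.5 CPM in MYCN 1 to 4 and 31.6, 34.9, 23.9 and 20.3 CPM in myrAKT 1 to 4, without overlap.

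Top2a, which untangles sister chromatids, was at 30.3, 27.4, 23.9 and 27.8 CPM in MYCN 1 to 4 and 204, 225, 148 and 138 CPM in myrAKT 1 to 4. Mki67, the Ki-67 protein that coats mitotic chromosomes and serves as the usual marker of dividing cells, was at 54.3, 52.3, 49.2 and 47.4 CPM in MYCN 1 to 4 and 368, 443, 240.5 and 225 CPM in myrAKT 1 to 4. Both were higher in every myrAKT library (log2 fold changes 2.71 ± 0.19 and 2.65 ± 0.23, edgeR adjusted p = 1.0e-06 and 4.0e-06). Pttg1, the securin that keeps separase inactive, was at 4.55, 4.27, 3.30 and 5.54 CPM in MYCN 1 to 4 and 8.45, 11.9, 6.33 and 5.95 CPM in myrAKT 1 to 4. MYCN 4 and myrAKT 4 were nearly level, and the rise was among the smallest (log2 fold change 0.89 ± 0.27, SE, edgeR adjusted p = 0.012).

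The members not counted as mitotic went separate ways. Pttg1ipb, named for binding securin, was at 0.306, 0.179, 0.443 and 0.0240 CPM in MYCN 1 to 4 and 4.65, 2.64, 13.6 and 12.9 CPM in myrAKT 1 to 4. Here myrAKT 3 and 4 were the high libraries, the reverse of the mitotic genes (log2 fold change 5.11 ± 0.74, SE, edgeR adjusted p = 1.5e-04), and the MYCN values rest on 1 to 18 reads. Aurkaip1, whose human counterpart is a protein of the mitochondrial ribosome, was at 45.7, 46.6, 38.7 and 120.1 CPM in MYCN 1 to 4 and 28.7, 29.7, 30.2 and 24.2 CPM in myrAKT 1 to 4. MYCN 4 was far above the rest (log2 fold change -1.16 ± 0.34, SE, edgeR adjusted p = 0.011), and scaling on dbh and th gave the opposite sign, 0.39, without passing (adjusted p = 0.29).

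**Figure D2:**
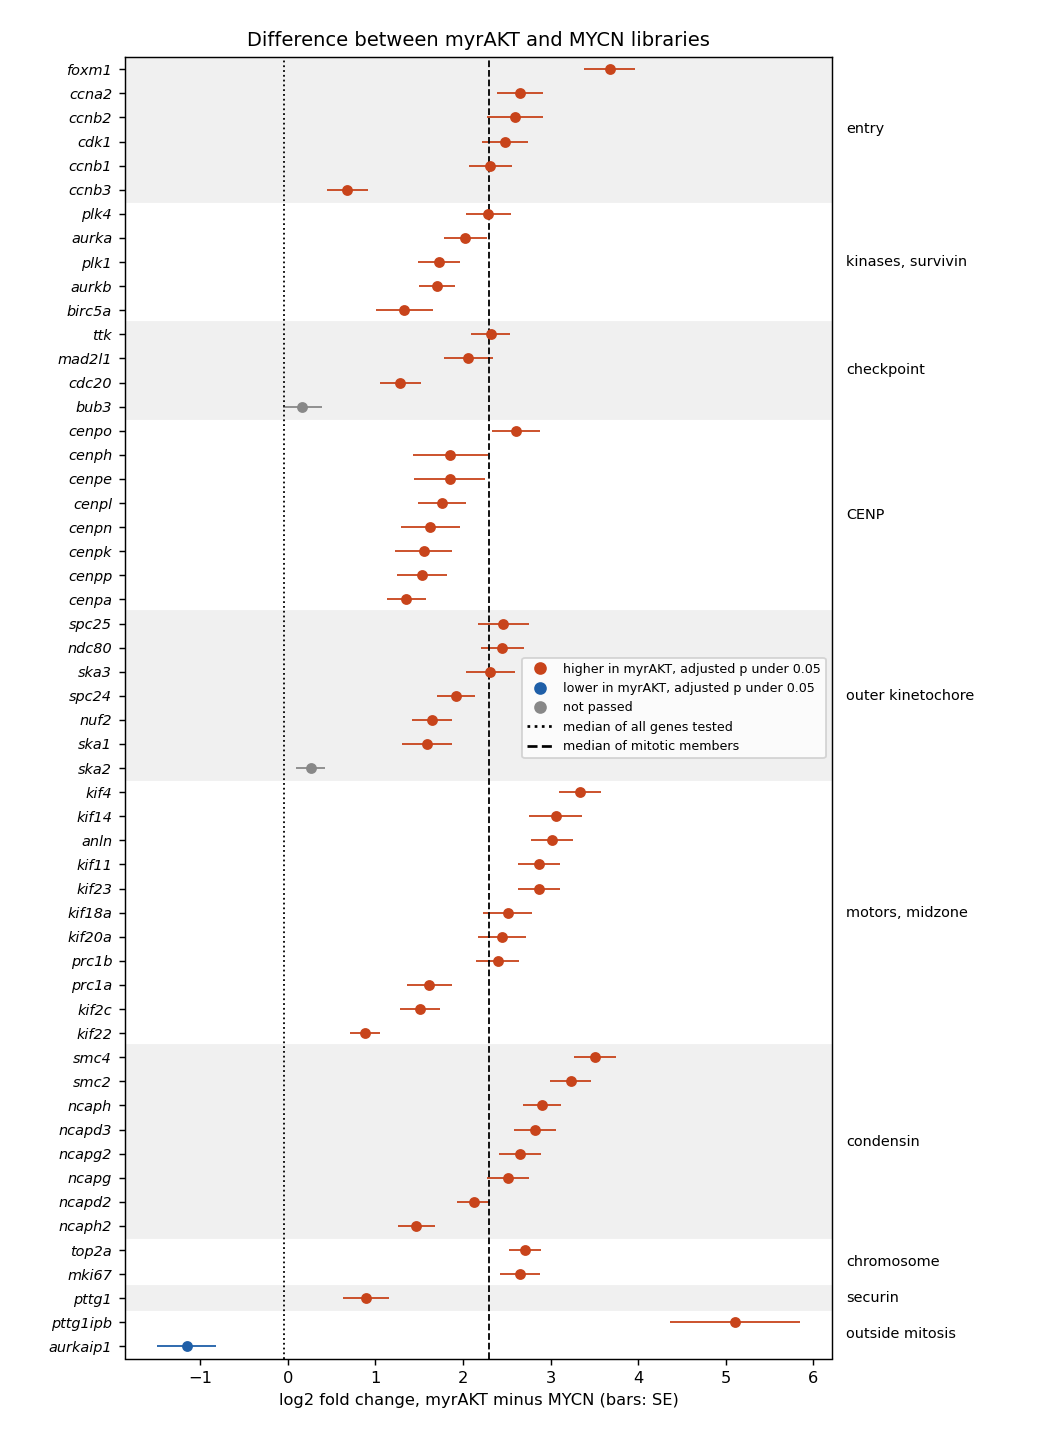
Log2 fold change, myrAKT minus MYCN, of the 54 tested members with its SE, by role. The dashed line is the median of the 52 mitotic members (2.30) and the dotted line that of all genes tested (-0.044). Bub3 and ska2 in grey did not pass.

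The mitotic genes did not all rise by the same factor. To compare them with each other, the fit over all 12126 genes was repeated with libraries scaled on the median ratio of the 52 members, so that 0 stands for the typical mitotic gene. By this construction some members must lie above 0 and others below it, and the scale was chosen after the data were seen. On it 11 members passed above 0 and 13 below, where 11.8% of all tested genes passed above and 73.8% below. Since most of the 12126 genes passed on this scale, adjustment over them corrects little for the comparison of the 52 members. Calls near the threshold, such as plk1 and top2a (edgeR adjusted p = 0.049 for each), are therefore weak. The members above were foxm1 at 1.43 ± 0.30 (SE, edgeR adjusted p = 4.0e-04), smc4 at 1.26 ± 0.23 (SE, edgeR adjusted p = 8.5e-05) and smc2 at 1.00 ± 0.23 (SE, edgeR adjusted p = 7.1e-04). Kif4 lay between smc4 and smc2, and kif14, anln, ncaph, kif23, kif11, ncapd3 and top2a followed, from 0.82 down to 0.49. Of the 8 condensin genes 4 passed above 0, 1 passed below and 3 did not pass. Of the 11 genes of motors and midzone 5 passed above 0, 3 passed below and 3 did not pass. The members below were bub3 at -2.03 ± 0.24 (SE, edgeR adjusted p = 1.3e-06), ska2 at -1.90 ± 0.27 (SE, edgeR adjusted p = 8.9e-06), ccnb3 at -1.57 ± 0.27 (SE, edgeR adjusted p = 5.1e-05), pttg1 at -1.35 ± 0.29 (SE, edgeR adjusted p = 4.5e-04) and kif22 at -1.31 ± 0.22 (SE, edgeR adjusted p = 5.1e-05), with cdc20, birc5a, cenpa, ncaph2, kif2c, prc1a, nuf2 and plk1 between -0.95 and -0.53. None of the CENP, outer kinetochore, checkpoint or kinase genes passed above 0.

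Leaving out each library in turn kept between 16 and 24 of these 24 calls and turned none. Those that held in every case were foxm1, smc4, kif4, smc2, anln and kif11 above 0, and bub3, ska2, ccnb3, pttg1, kif22, cdc20, birc5a, cenpa and ncaph2 below. The value of foxm1 stayed between 1.41 and 1.47, that of smc4 between 1.15 and 1.32 and that of bub3 between -2.10 and -1.89. Fewest calls were kept without MYCN 2, MYCN 3 or myrAKT 1. Without MYCN 4, 8 members passed above 0 and 16 below. Kif14, kif23 and top2a then no longer passed, and aurkb, cenpe and cenpp passed below 0. Mki67, at 0.41 (edgeR adjusted p = 0.086), ccna2, at 0.41, and cdk1, at 0.26, did not pass on this scale. Ccnb1, plk4, ttk, ska3 and ncapd2 were within 0.1 of 0.

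**Figure D3:**
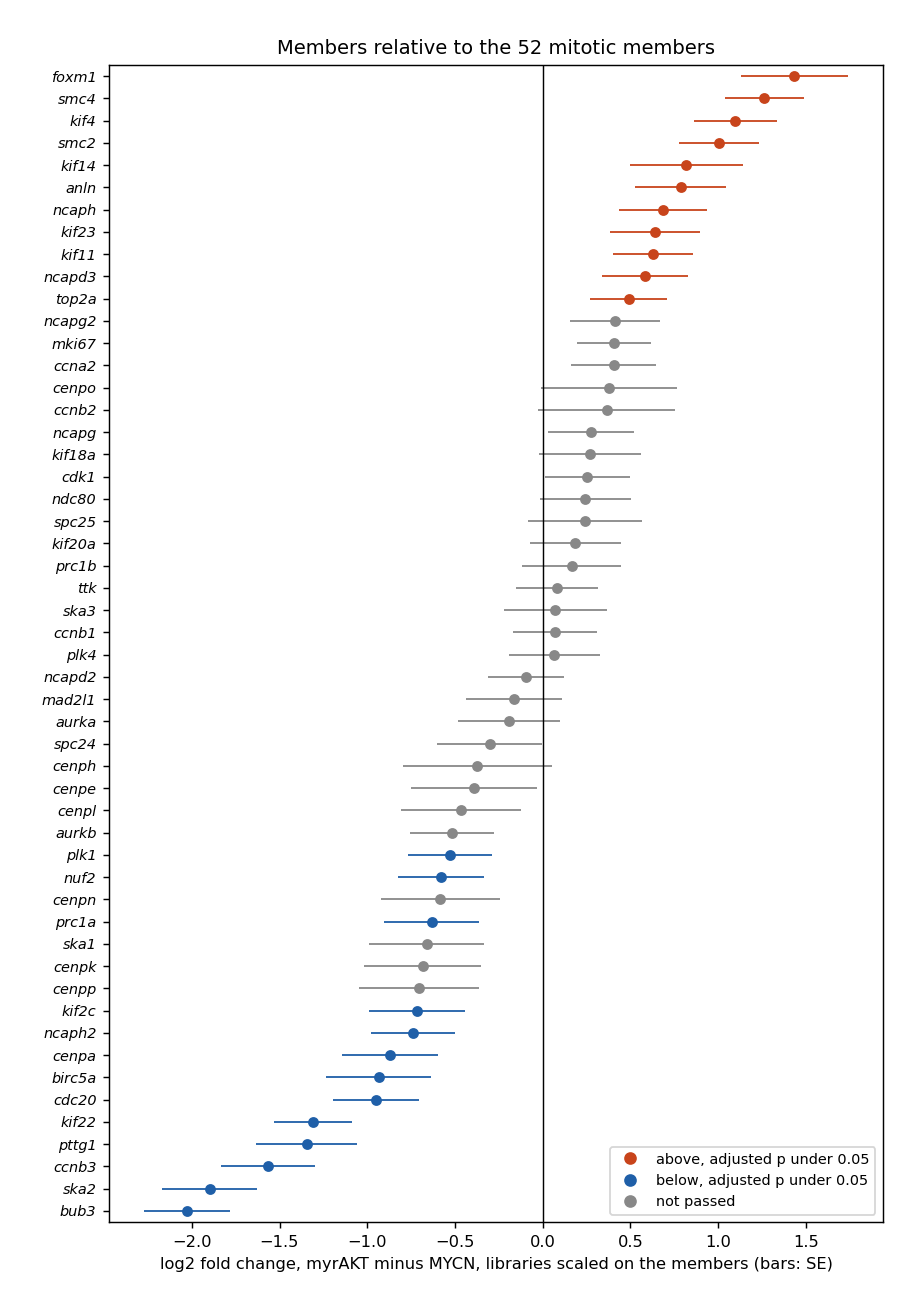
Log2 fold change, myrAKT minus MYCN, of the 52 mitotic members with its SE, in a fit whose libraries were scaled on these members. Foxm1 (1.43) and the condensin core genes smc4 (1.26) and smc2 (1.00) lie above the typical member, and ska2 (-1.90) and bub3 (-2.03) lie farthest below it.

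Ratios of 2 members within a library do not depend on library scaling at all. Of the pairs listed by known role, 14 had both genes tested, and each ratio was compared by an exact two-sided permutation test over the 8 libraries, whose smallest possible p is 0.0286. In 6 pairs the groups did not overlap and p took that value, and none of the 14 passed after adjustment over the pairs (adjusted p = 0.0667 for each of these 6). With 4 libraries per group, no pair could pass this adjustment unless most of the 14 reached the smallest p. That none passed therefore does not show that the ratios were alike. How often the ratios of other gene pairs separate was not counted, so the 6 cannot be read as particular to these pairs. The log2 ratio of ccnb1 to ccnb3 was -0.44, 0.062, -0.10 and 0.12 in MYCN 1 to 4 and 1.49, 1.60, 1.58 and 1.42 in myrAKT 1 to 4. Reads of both cyclins were about even in MYCN, and the mean log2 ratio was higher by 1.61 in myrAKT. The log2 ratio of ncaph to ncaph2, the kleisin subunits of condensin I and II, was -0.70 ± 0.34 in MYCN and 0.74 ± 0.041 in myrAKT (SD, n = 4). Its mean was higher by 1.44 in myrAKT, and the myrAKT libraries were nearly identical in it. Counts are not corrected for gene length, so a ratio of 0 does not mark equal amounts of the 2 RNAs. The ratio of the HEAT subunits ncapd2 to ncapd3 moved the other way, from 1.26 ± 0.29 to 0.56 ± 0.083, and that of ncapg to ncapg2 was 1.48 ± 0.36 in MYCN and 1.36 ± 0.026 in myrAKT, with overlap. The 3 subunit pairs of condensin I and II did not shift in 1 direction.

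The other separated pairs were ndc80 to nuf2, with a mean log2 ratio higher by 0.85 in myrAKT, cdc20 to mad2l1, whose ratio was 0.89 ± 0.23 in MYCN and 0.079 ± 0.15 in myrAKT, and prc1a to prc1b, at 0.85 ± 0.29 in MYCN and 0.061 ± 0.089 in myrAKT. The ratio of mki67 to top2a was 0.90 ± 0.12 in MYCN and 0.81 ± 0.13 in myrAKT, a difference of -0.084 within the spread of either group (exact permutation p = 0.371). Smc2 to smc4, aurkb to aurka, plk1 to plk4, ccnb1 to ccnb2, ccnb1 to ccna2 and spc24 to spc25 overlapped between groups, with differences between -0.62 for plk1 to plk4 and -0.25 for smc2 to smc4. In 13 of the 14 pairs the 4 myrAKT libraries varied less than the 4 MYCN libraries. The same count was not taken over other gene pairs. Some MYCN ratios rest on fewer reads, such as 16 to 38 for ccnb2 against 92 to 256 in myrAKT. In others MYCN 4 stood apart, as in plk1 to plk4, at 0.52 against 1.45 to 1.58 in MYCN 1 to 3. The part of read number and of MYCN 4 in this spread was not tested.

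**Figure D4:**
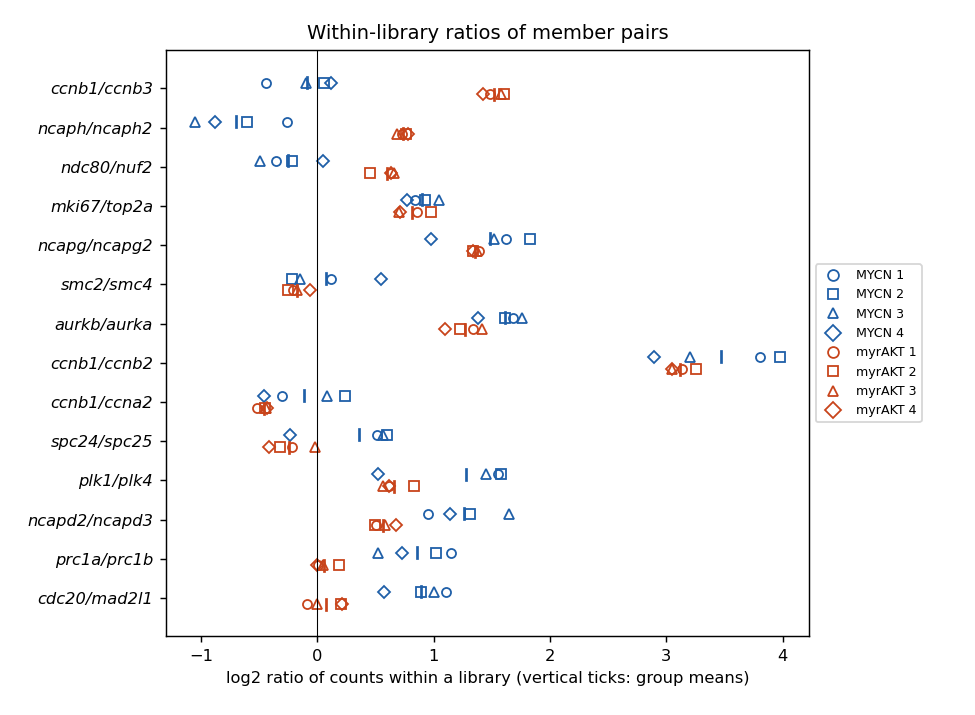
Log2 ratio of the read counts of 2 members within each library for 14 pairs, MYCN in blue above and myrAKT in red below, with group means as vertical ticks. The groups separate for ccnb1/ccnb3, ncaph/ncaph2, ndc80/nuf2, ncapd2/ncapd3, prc1a/prc1b and cdc20/mad2l1.

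Within the myrAKT group most mitotic genes had the same high and low libraries. Their summed level was 2452, 2861, 1678 and 1546 CPM in myrAKT 1 to 4, against 434, 436, 425 and 482 CPM in MYCN 1 to 4. Of the 52, 50 were highest in myrAKT 2, where 28.2% of all tested genes were, and 38 were lowest in myrAKT 4, where 33.3% were. They fell in the order 2, 1, 3, 4 in 37 cases, an order that 12.5% of all tested genes had. The ratio of the highest to the lowest myrAKT library ran from 1.11 for ska2 to 2.69 for birc5a. Replication genes were high in the same libraries, with summed levels of 1531, 1497, 1025 and 893 CPM. So were the erythroid markers, at 9182, 8276, 3884 and 4374 CPM, and the lymphocyte markers, at 630.2, 654, 478 and 460.4 CPM. The sum of the leukocyte markers, at 27780.4, 26658, 24018 and 23199 CPM, varied less, but its genes differed. Cd74a was higher in myrAKT 1 and 2, at 7176, 7900, 5694 and 5274 CPM, and lyz was lowest in myrAKT 2, at 4651, 3824, 4307 and 4347 CPM. Of the blood progenitor markers, myb was higher in myrAKT 1 and 2, at 267, 264, 210 and 178 CPM. Gata2a was lower in them, at 104, 119, 189 and 225 CPM. Catecholamine cell markers were lowest in myrAKT 1 and highest in myrAKT 4, at 1978, 2747, 3595 and 4321 CPM, and kidney tubule markers were lowest in myrAKT 2, at 2957, 1293, 4696 and 3729 CPM. With 4 libraries no correlation was computed, and which cells of the sort carried the mitotic RNA was not tested.

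In MYCN the mitotic sum hardly varied, but its members did not keep step. MYCN 4 was the highest of the 4 libraries for 27 of the 52 and the lowest for 12. The same shares were not taken over all tested genes, so these counts cannot be read as particular to the members. In MYCN 4 cenph was 3.55 times, cenpn 2.19 times and mad2l1 1.75 times the mean of MYCN 1 to 3. Cenpe was at 0.366, kif2c at 0.623 and anln at 0.654 of that mean. Replication genes were at 426, 436, 438 and 948 CPM and leukocyte markers at 539, 760.0, 946 and 1639.8 CPM in MYCN 1 to 4. Without MYCN 4, 50 of the 52 rose, 49 of them also called with it, since ska2 passed and ccnb3 did not, with a median log2 fold change of 2.32.

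**Figure D5:**
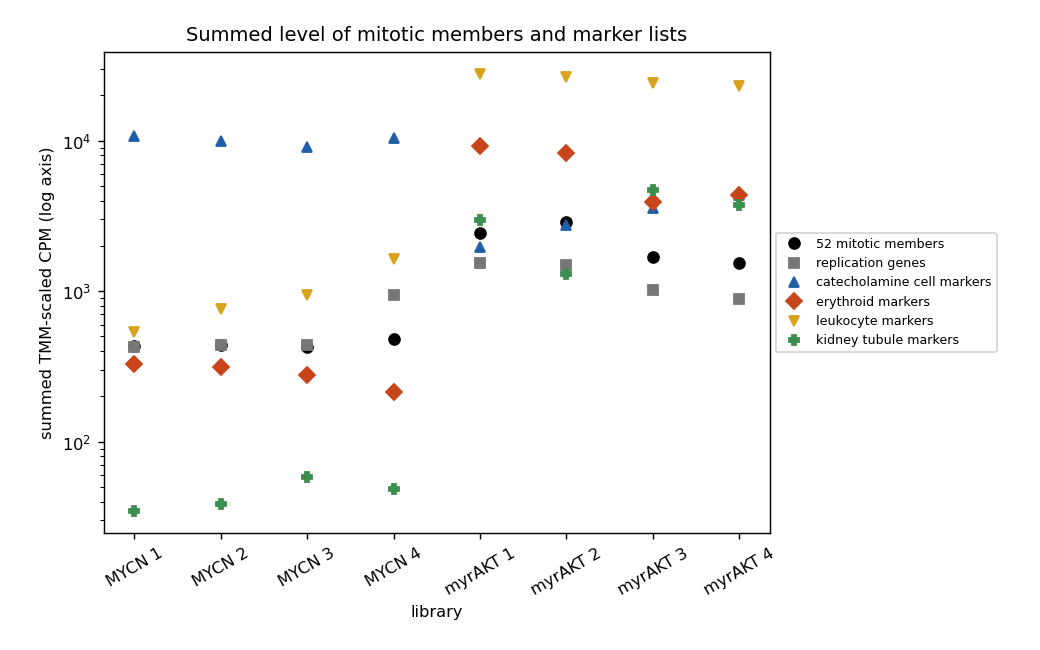
Summed TMM-scaled CPM (log axis) of the 52 mitotic members, of replication genes and of 4 lists of cell type markers in each library. The mitotic sum is 425 to 482 CPM in MYCN and 1546 to 2861 CPM in myrAKT. In it myrAKT 1 and 2 lie above 3 and 4, as for the replication genes, the erythroid markers and, by less, the leukocyte markers.

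Markers of further cell types were also higher in myrAKT. Of 14 endothelial markers 14 rose (summed level 19.7 to 31.3 CPM in MYCN and 722 to 885 CPM in myrAKT), among them fli1b, at 5.93 ± 1.76 CPM in MYCN and 270.3 ± 38.5 CPM in myrAKT, and stab1, at 3.27 ± 1.59 CPM in MYCN and 158 ± 43.5 CPM in myrAKT. Likewise, of 14 kidney tubule markers 14 rose (34.6 to 58.3 CPM in MYCN and 1293 to 4696 CPM in myrAKT), with the sodium pump gene atp1a1a.4 at 2.43 ± 1.40 CPM in MYCN and 1206 ± 510.1 CPM in myrAKT and cdh17 at 3.02 ± 1.95 CPM in MYCN and 912 ± 461 CPM in myrAKT. Of 11 stromal markers 10 rose (28.1 to 42.7 CPM in MYCN and 572 to 731 CPM in myrAKT), and pdgfrb, a pericyte receptor, had no reads in any library. Cxcl12a was at 8.46 ± 2.79 CPM in MYCN and 256 ± 62 CPM in myrAKT and fn1b at 6.41 ± 0.798 CPM in MYCN and 197 ± 19.1 CPM in myrAKT. Of 11 lymphocyte markers 10 rose and rag2 fell (43.8 to 83.6 CPM in MYCN and 460.4 to 654 CPM in myrAKT), and pax5, the B-cell factor, was at 0 in MYCN and 18.6 ± 1.53 CPM in myrAKT. Ikzf1 was at 2.56 ± 0.626 CPM in MYCN and 147 ± 30.4 CPM in myrAKT and ccr9a at 4.23 ± 1.64 CPM in MYCN and 106 ± 8.70 CPM in myrAKT. Foxn1, a thymus factor, was at 0 in MYCN too, with almost no reads in myrAKT. Of 10 blood progenitor markers 9 rose, among them myb, at 6.12 ± 1.55 CPM in MYCN and 229.7 ± 43.5 CPM in myrAKT (SD, n = 4). Gata2a, shared with sympathetic cells, was at 512 ± 88.5 CPM in MYCN and 159 ± 57.5 CPM in myrAKT. It fell and held most of that list's sum in MYCN (458 to 619.7 CPM in MYCN and 629.6 to 658 CPM in myrAKT), and runx1 had no reads. The fall of gata2a, -1.69 on the log2 scale, did not pass on scaling to dbh and th (-0.32, edgeR adjusted p = 0.39). Of 7 glial markers 5 rose and mpz fell (25.6 to 41 CPM in MYCN and 82.9 to 95.3 CPM in myrAKT). Erbb3b was at 0 in MYCN, with almost no reads in myrAKT (0.029 CPM), and was not tested. Mbpb was at 27.7 ± 6.07 CPM in MYCN and 78.8 ± 8.11 CPM in myrAKT and sox10, which marks Schwann cell precursors, at 0.304 ± 0.196 CPM in MYCN and 2.59 ± 0.887 CPM in myrAKT, a log2 fold change of 3.08 that became 3.67 without MYCN 3. Of 6 germ cell markers 3 fell and sycp1 rose (18.6 to 105 CPM in MYCN and 21.6 to 25.1 CPM in myrAKT). Sycp1 was at 0.744 ± 0.456 CPM in MYCN and 21.3 ± 1.86 CPM in myrAKT and piwil2 at 34.7 ± 44.9 CPM in MYCN and 0.615 ± 0.160 CPM in myrAKT, where the log2 fold change of -5.78 became -4.33 without MYCN 4.

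Other genes of mitosis were taken from lists made by known role. Their counts with TMM factors are to be read beside the 37.6% of all tested genes that rose and the 38.4% that fell. Of 19 further spindle and cytokinesis genes 14 rose, 3 fell and 2 did not pass (median log2 fold change 2.14). Haus5, of the augmin complex that branches spindle microtubules, was at 1.29 ± 0.285 CPM in MYCN and 13.3 ± 4.47 CPM in myrAKT (log2 fold change 3.37 ± 0.30, edgeR adjusted p = 5.6e-06). Tacc3, a spindle protein and Aurora A target, rose by 2.43 (edgeR adjusted p = 9.8e-06). Clasp1a, clasp2 and mapre1b, microtubule plus-end proteins that neurons also use, fell, clasp1a from 285 ± 51.1 to 91 ± 22.6 CPM. Mapre1a, the paralogue of mapre1b, rose by 2.14 (edgeR adjusted p = 0.0010). The clasp1a call was lost on scaling to dbh and th (-0.25, edgeR adjusted p = 0.49). No gene of this list was called lower on that scale, so the falls of clasp2 and mapre1b were lost as well. Of 8 other kinetochore genes 7 rose (median 1.07), among them zw10, of the dynein adaptor at kinetochores, at 1.63 (edgeR adjusted p = 1.9e-05). Sgol1, the shugoshin that protects centromeric cohesion, rose by 2.88 and cdca8, borealin of the passenger complex, by 1.26 (edgeR adjusted p = 1.2e-05 and 9.5e-04). Of 6 centriole genes 4 rose (median 1.01), with stil at 3.45 and cep135 at 1.99.

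Of 10 cohesin genes 5 rose, 1 fell and 4 did not pass (median 0.33). Esco2, the acetyltransferase that locks cohesin during S phase, was at 6.98 ± 2.64 CPM in MYCN and 42.5 ± 15.4 CPM in myrAKT (log2 fold change 2.60 ± 0.32, edgeR adjusted p = 5.2e-05), and nipblb, a cohesin loader, rose by 0.84. Rad21b, a kleisin of cohesin, fell from 96.2 ± 19 to 10.3 ± 4.33 CPM, a log2 fold change of -3.23 ± 0.29 (edgeR adjusted p = 5.3e-06). Its paralogue rad21a did not pass, at 319 ± 36.4 CPM in MYCN and 338 ± 46.7 CPM in myrAKT (edgeR adjusted p = 0.61). Of 17 genes of the anaphase-promoting complex and its regulators 3 rose, 6 fell and 8 did not pass (median -0.34). Those that fell were subunits, such as anapc13 at -1.99 and anapc15 at -1.21. Other subunits did not fall: cdc27 rose by 0.45 (edgeR adjusted p = 0.0047), and cdc16 and cdc23 were among those that did not pass. Neither anapc13 nor anapc15 passed on scaling to dbh and th (-0.48 and 0.28, edgeR adjusted p = 0.17 and 0.43). Fbxo5, the EMI1 inhibitor of the complex, rose from 1.54 ± 0.121 to 17.8 ± 6.52 CPM, or by 3.53 ± 0.29 on the log2 scale (edgeR adjusted p = 3.1e-06). With library totals this list had 6 higher and 5 lower (median 0.0066), where 5507 of all 12126 tested genes were higher and 3348 lower. Scaling on dbh and th gave 12 higher and 0 lower. On that scale 8319 of all 12126 tested genes were higher and 1026 lower, and their median was 1.45.

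Of 15 controls of mitotic entry and exit 10 rose and 3 fell (median 0.72). Cdc25b, the phosphatase that activates CDK1, was at 11.5 ± 1.54 CPM in MYCN and 134 ± 33.1 CPM in myrAKT (log2 fold change 3.55 ± 0.20, edgeR adjusted p = 3.8e-07). Gtse1, a microtubule protein of G2 and mitosis, rose by 3.16. Pkmyt1, a kinase that holds CDK1 inactive, fell by 0.74 (edgeR adjusted p = 0.0014), did not pass with library totals (-0.38, adjusted p = 0.13) and was higher with libraries scaled on dbh and th (0.73, adjusted p = 0.036). Of 14 E2F and DREAM genes 11 rose and 2 fell (median 1.09). Rbl1, the pocket protein p107, rose by 2.08 and lin54, a MuvB subunit that binds mitotic promoters, by 1.98 (edgeR adjusted p = 6.7e-07 and 2.8e-06). Tfdp1a, a partner of E2F, fell by 0.97, while its relatives tfdp1b and tfdp2 rose by 1.13 and 0.63 (edgeR adjusted p = 4.0e-04 and 0.0067). On scaling to dbh and th tfdp1a did not pass (0.57, edgeR adjusted p = 0.11). Of 21 replication genes 15 rose and 1, orc3, fell (median 1.21), with mcm10 at 2.37 and gins4 at 2.33. Orc3, an origin recognition subunit, was at -0.98 (edgeR adjusted p = 0.01) and did not pass with library totals (-0.57, adjusted p = 0.053) or on scaling to dbh and th (0.56, adjusted p = 0.12). With library totals the entry list had 10 higher and 0 lower, where 5507 of all 12126 tested genes were higher and 3348 lower. Scaled on dbh and th, it had 15 higher and 0 lower. The spindle list then had 16 higher and 0 lower and the E2F and DREAM list 13 higher and 0 lower. On that scale 8319 of all 12126 tested genes were higher and only 1026 lower, so the lack of falls cannot be read as particular to these lists.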

How the data were processed

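RNA-seq libraries from 8 samples of sorted zebrafish tumour cells were analysed, 4 MYCN and 4 myrAKT. The authors deposited raw read counts per gene symbol, whole numbers with 1 column per library. The submitters' processing notes name, in no stated order, HTSeq 0.6.1, TopHat2 2.1.1, Trim Galore 0.4.4, edgeR, FastQC 0.11.5 and SAMtools 1.5, with genome build GRCz10. The sources used here do not give the annotation, the strand setting or the treatment of shared reads. The labels call the RNA polyA, while their protocol describes depletion of ribosomal RNA. Per-library totals lay between 25948623 and 55827123 counts.

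The table was fitted as a whole under R 4.3.3 with edgeR 4.0.16. Low genes were removed by filterByExpr on the groups (minimum count 10), and TMM factors, a robust glmQLFit without the legacy option, two-sided glmQLFTest and Benjamini-Hochberg adjustment were applied over 12126 genes. SE is the absolute log2 fold change divided by the square root of F. A pseudocount of 0.5 was used in ratios. Levels are not corrected for gene length and are compared only between libraries. Simulated counts for these 12126 genes gave 54 of 100 genes changed 2-fold, 91 of 100 changed 4-fold and 9 unchanged genes called. Only 200 genes were changed there, evenly up and down, while 9220 genes were called in the real libraries. The simulation therefore does not measure errors that come from library scaling. Alternatives were DESeq2 1.42.0, other scalings and filters, a replicate block and leaving out libraries.

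Members and lists were chosen with earlier results of these data known. Named are the main regulators, per role the 3 strongest calls and all exceptions, the 5 largest and smallest changes, per related list the 2 strongest calls and 1 in the other direction, and per marker list the 2 most abundant genes and those at 0. One gene that this rule names is not reported here. No promoter or protein sequences were used here.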

Additional observations from a re-analysis of the deposited data

Results flagged for a closer look

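Among 108 sets of 4 libraries (54 tested members in each group), 6 held a value far from the other 3, where chance gives about 1 in 20, and 5 of these 6 were in MYCN 4. Cdk1 was at 12.9 CPM against 7.69 to 8.39 CPM in the other MYCN libraries, mad2l1 at 7.13 CPM against 3.79 to 4.27 CPM and cenph at 2.64 CPM against 0.687 to 0.801 CPM. Cenpa was at 4.99 CPM against 3.89 to 3.98 CPM and aurkaip1 at 120.1 CPM against 38.7 to 46.6 CPM in the same library. Ncapg2 was low in MYCN 2, at 3.61 CPM against 5.03 to 5.18 CPM. No member had such a value in a myrAKT library.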

How the results depend on the processing

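The 50 rises among 52 mitotic members numbered 50 with DESeq2, upper-quartile factors, both other filters, the legacy fit and the replicate block, 52 with library totals or scaling on dbh and th, and between 49 and 50 with single libraries left out. Of the 52, 49 kept their call throughout, and the others were ccnb3, bub3 and ska2. The median log2 fold change of 2.30 moved to 2.68 with library totals and 3.88 scaled on dbh and th, and lay between 2.09 and 2.43 without single libraries. It was 2.12 without MYCN 4 and myrAKT 2, a setting chosen after seeing the data, under which ccnb3 did not pass (0.40, edgeR adjusted p = 0.12). Scaling on dbh and th was followed for the members and for the list genes picked by the naming rule. Among these, aurkaip1 (0.39), anapc15 (0.28), pkmyt1 (0.73), tfdp1a (0.57) and orc3 (0.56) turned sign. Dbh (-0.044) and th (0.052) were held near 0 by the scale itself. The median of all genes rose from -0.044 to 1.45 on this scale. Other genes named in the text, such as ddc and rag2, were not followed. For clasp2 and mapre1b only the count of their list is given, which had no gene called lower on this scale. Same-numbered libraries of the groups did not deviate together (correlations across genes between -0.20 and 0.069), so the numbers were not taken as pairs; the replicate block called 52 members and 8816 genes, against 52 and 9220 without it. No pair ratio passed with a pseudocount of 0, 0.5 or 1, in a test where no pair could pass alone. Calls on the members' own scale numbered between 16 and 24 without single libraries, against 24. Ccnb2, cenpo and cenph rest on under 50 reads in most MYCN libraries, which limits their precision.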
